A study of Mus musculus with 6 samples.

Results

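The subject is a set of 37 monocyte and macrophage genes in mouse hearts injured by ischemia and reperfusion (I/R), that is, by closing and reopening a coronary vessel. The set was chosen by gene name and covers resident, recruited and repair macrophage markers. All 37 were present, each as 1 row of the 55359 gene rows, and all 37 passed the filter on low counts that left 20489 genes tested. The hearts called shYthdf2 came from C57BL/6 mice given by tail vein the adeno-associated virus AAV9 with a short hairpin RNA (shRNA) against YTHDF2, a reader of N6-methyladenosine in RNA. The hearts called shNC came from C57BL/6 mice given the same kind of virus with a negative control shRNA. Both groups underwent I/R 4 weeks later, with ischemia for 45 min and reperfusion for 24 h, so no uninjured heart was measured. The construct joined GFP to the cTNT promoter, that of a cardiomyocyte troponin gene, and the labels name no step directed at macrophages. Each group had 3 libraries of total heart RNA, and nothing says that they came from separate animals, so each p-value reflects only how far these samples spread, and that spread may be technical.

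The heart holds resident macrophages that are seeded before birth and renew locally, known by the receptors LYVE1, TIMD4, FOLR2 and CD163. After infarction, LY6C-high monocytes enter from the blood, clear dead muscle and then turn into cells that express repair genes such as Trem2, Gpnmb and Spp1. CSF1 and its receptor keep both kinds of cell alive, and the transcription factor PU.1, encoded by Spi1, sets the myeloid programme. In RNA from whole hearts, fewer macrophages and less RNA per macrophage cannot be told apart.

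The libraries held between 71121131 and 77561552 counts in shYthdf2 hearts and between 67023813 and 76026601 in shNC hearts. Values are CPM (counts scaled to library size, with TMM factors) unless FPKM, the authors' value per length, is named. Ythdf2 itself had 25.1, 25.6 and 32.7 CPM in shYthdf2 1, 2 and 3, against 20.7, 24.3 and 26.99 CPM in shNC 1, 2 and 3, so the targeted transcript did not separate the labels and each group is named by its label only. Libraries shYthdf2 1 and 2 were the closest pair, with a median absolute log2 difference of 0.20 over genes, against 0.36 to 0.67 for the other pairs within a group. Their counts still differed by far more than counting noise (chi-square of 39.7 per gene, where noise alone gives about 1), and they were kept as separate libraries. A difference beyond counting noise does not show that they came from separate hearts. The library shNC 3 stood apart from shNC 1 and 2, with median absolute log2 differences of 0.64 and 0.67. It was closer to shYthdf2 1, 2 and 3, at 0.41, 0.40 and 0.49. Summed over 9 cardiomyocyte markers, the libraries had 24551, 23389 and 29398 CPM in shYthdf2 1, 2 and 3, against 37865, 53038 and 20964 CPM in shNC 1, 2 and 3. None of the 9 was at 0 in any library.

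Per length, the set ran from lysozyme to genes near the detection limit. The authors' FPKM, averaged over 6 libraries, reached 10 or more in 16 genes, lay between 1 and 10 in 16 and was under 1 in 5. Lyz2, the lysozyme of myeloid cells, led with 210 ± 21.7 FPKM in shYthdf2 hearts and 203 ± 177 FPKM in shNC hearts (SD, n = 3 each). Apoe, a lipid carrier that macrophages and other heart cells make, came next with 65.8 ± 10.3 FPKM in shYthdf2 and 92.3 ± 5.84 FPKM in shNC. Among resident markers Stab1, a scavenger receptor of macrophages and endothelium, had the highest mean at 14.8 FPKM, followed by Lyve1 at 7.38 and Mrc1, the mannose receptor, at 5.80 FPKM. The resident marker Timd4, a phosphatidylserine receptor, was lowest of all 37 at 0.367 FPKM, next to the scavenger receptor gene Marco at 0.372 FPKM. The length that FPKM divides by, worked out from the counts and totals, was 0.743 kb for Tyrobp, 3.97 kb for Fabp5, 5.52 kb for Trem2 and 6.74 kb for Ctsb, and such lengths enter this order.

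**Figure D1:**
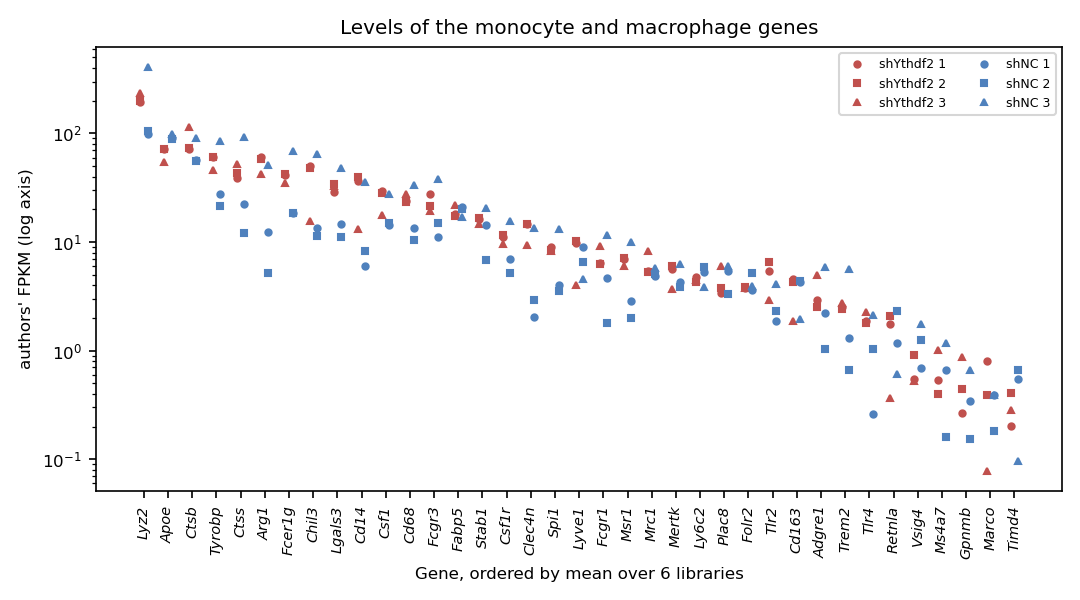
Authors' FPKM of the 37 genes in each library on a log axis, with genes ordered by their mean over 6 libraries. Red symbols are the shYthdf2 libraries and blue symbols the shNC libraries, and the shape gives the replicate. The blue triangles of shNC 3 lie above the other blue symbols for most of the abundant genes.

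None of the 37 genes passed the edgeR test over all genes (adjusted p under 0.05), where 2 of 20489, or 0.00976%, passed. At an unadjusted p under 0.05 there were 2, Tlr2 and Apoe, or 5.41% of the set, against 3.65% of all genes tested. DESeq2 passed 0 of the 37, where 0.27% of its genes passed, and limma on log2(FPKM + 0.5) also 0, where 0.00488% passed. In the edgeR fit 28 of 37 had a higher level in shYthdf2 hearts, 75.7% against 48.6% of all genes tested, and the median log2 fold change was 0.25 against -0.01. The groups did not overlap in 1 gene, Apoe, which was lower in every shYthdf2 library. That is 2.70% of the set, where 4.55% of all genes were lower without overlap, and 0 of 37 were higher without overlap, where 4.95% of all genes were.

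The control hearts were the less uniform group. The ratio of the highest to the lowest library had a median of 1.51 over the 37 genes among shYthdf2 hearts and 2.94 among shNC hearts. It was wider among shNC libraries in 28 of 37 genes, or 75.7%, against 66.0% of all genes tested. The highest of the 6 libraries was shNC 3 in 17 of 37 genes (45.9%, against 24.4% of all genes), and the lowest was shNC 1 or shNC 2 in 25 (67.6%, against 37.9%). Summed over the set, the levels were 2335, 2375 and 2438 CPM in shYthdf2 1, 2 and 3, against 1593, 1551 and 2844 CPM in shNC 1, 2 and 3. The cardiomyocyte sum ran the other way in shNC 3 and in shNC 1 and 2, and its part in these differences was not tested.

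**Figure D2:**
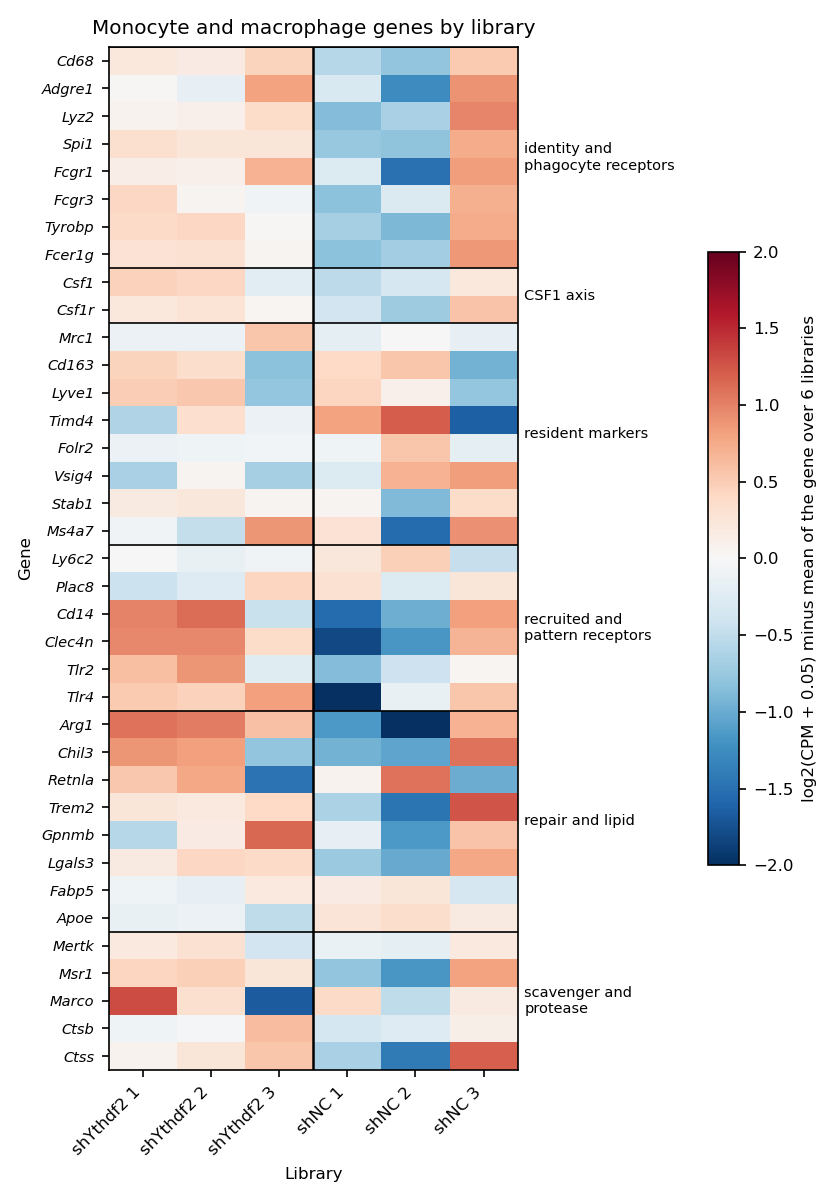
Heat map of the 37 genes, grouped by role, as log2(CPM + 0.05) centred on the mean of each gene (colour scale from -2 to 2). The shYthdf2 libraries are to the left of the line and the shNC libraries to the right, and shNC 1 and 2 are blue for all 8 identity and phagocyte receptor genes while shNC 3 is red.

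The identity and phagocyte receptor genes shared 1 library order. All 8 had their highest level in shNC 3 and their lowest in shNC 1 or 2, with the 3 shYthdf2 libraries between, and all 8 had a positive log2 fold change, with a median of 0.30. Cd68 (ENSMUSG00000018774, chromosome 11, 69555039 to 69556979, minus strand, in the coordinates of the table), a lysosomal glycoprotein of phagocytes, had 33.1, 32.1 and 39.1 CPM in shYthdf2 1, 2 and 3, against 19.3, 16.5 and 41.3 CPM in shNC 1, 2 and 3. Only shNC 3 of the controls reached the shYthdf2 range, and the log2 fold change was 0.44 ± 0.35 (SE, edgeR adjusted p = 0.976, 95% interval from -0.39 to 1.27). Spi1 (ENSMUSG00000002111, chromosome 2, 90912735 to 90944711, plus strand) had 26.3, 24.8 and 24.9 CPM in shYthdf2 hearts, against 12.4, 12.01 and 35.2 CPM in shNC hearts. The shYthdf2 libraries were nearly equal for Spi1, at 25.3 ± 0.842 CPM against 19.9 ± 13.3 CPM in shNC (SD, n = 3 each), and the log2 fold change was 0.35 ± 0.42 (SE, edgeR adjusted p = 0.976).

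Tyrobp encodes DAP12, an adaptor that signals for TREM2 and related receptors. It had 43.8, 44.8 and 34.2 CPM in shYthdf2 1, 2 and 3, against 21.0, 17.9 and 55.9 CPM in shNC 1, 2 and 3. Fcer1g, the Fc receptor gamma chain, went the same way with 40.03, 40.2 and 34.1 CPM against 18.6, 20.2 and 59.7 CPM in shNC. In both adaptor genes all 3 shYthdf2 libraries lay above shNC 1 and 2 and below shNC 3. Adgre1, which encodes the macrophage marker F4/80, had 10.4, 9.02 and 17.9 CPM in shYthdf2 hearts, against 8.21, 4.20 and 19.0 CPM in shNC hearts, so shYthdf2 3 came close to shNC 3. Lyz2 had 282, 289 and 347 CPM in shYthdf2 hearts, against 148, 172 and 529 CPM in shNC hearts. The Fc gamma receptor genes Fcgr1 and Fcgr3 had log2 fold changes of 0.35 ± 0.53 and 0.13 ± 0.38 (SE). All 8 genes had an edgeR adjusted p of 0.976 or more. A near copy of Lyz2, Lyz1, had 0.472 to 1.75 CPM over the 6 libraries.

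The promoters of Fcgr1, Ctss, Trem2 and Mrc1, chosen after their values were seen, are printed because the first 3 genes follow the shared library order and Mrc1 does not, while each holds the core of the PU.1 site. RefSeq windows (GRCm38.p6, 250 bases before to 50 after the start) were matched by symbol for 25 of the 37 genes. The letters GAGGAAG, searched on both strands, were present in 8 of these 25 windows (32.0%) and in 13.5% of 27025 windows of all genes. The 8 were Ctss, Fcgr1, Fcgr3, Trem2, Ly6c2, Marco, Mrc1 and Retnla. Of those not printed, Fcgr3 was highest in shNC 3, Ly6c2 and Retnla in shNC 2, and Marco in shYthdf2 1. Genes with the core thus did not share 1 library order. An AP-1 pattern TGANTCA was present in 3 of 25 (12%, against 7.93%), an NF-kappaB pattern (GGG, any pair of bases, TTTCC) in 3 of 25 (12%, against 1.62%), and the E-box CACGTG in 0 of 25 (against 7.24%). Such matches describe letters and not bound sites. In the windows below, read 5′ to 3′ on the gene's strand, capitals mark the PU.1 core, which here lies on the opposite strand as CTTCCTC, and in Trem2 also the AP-1 pattern TGAATCA. The Fcgr1 window is chr3:96293920-96294219 on the minus strand, that of Ctss chr3:95526536-95526835, that of Trem2 chr17:48346151-48346450 and that of Mrc1 chr2:14229164-14229463, the last 3 on the plus strand.
Fcgr1: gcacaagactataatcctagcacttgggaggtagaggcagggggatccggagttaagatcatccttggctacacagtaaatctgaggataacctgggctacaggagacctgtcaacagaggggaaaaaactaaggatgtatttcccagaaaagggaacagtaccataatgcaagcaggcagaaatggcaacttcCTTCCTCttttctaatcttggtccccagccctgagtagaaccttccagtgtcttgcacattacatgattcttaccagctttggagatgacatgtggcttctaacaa
Ctss: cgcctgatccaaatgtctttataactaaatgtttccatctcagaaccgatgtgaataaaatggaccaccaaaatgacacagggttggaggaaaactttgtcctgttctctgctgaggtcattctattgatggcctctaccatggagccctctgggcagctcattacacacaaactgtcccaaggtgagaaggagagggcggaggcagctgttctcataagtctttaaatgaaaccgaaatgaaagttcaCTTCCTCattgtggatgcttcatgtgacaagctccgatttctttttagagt
Trem2: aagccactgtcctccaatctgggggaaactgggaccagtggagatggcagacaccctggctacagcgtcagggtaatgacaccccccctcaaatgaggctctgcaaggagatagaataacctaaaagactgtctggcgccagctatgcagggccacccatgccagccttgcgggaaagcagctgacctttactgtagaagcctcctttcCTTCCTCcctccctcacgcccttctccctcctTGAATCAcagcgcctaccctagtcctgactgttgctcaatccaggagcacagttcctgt
Mrc1: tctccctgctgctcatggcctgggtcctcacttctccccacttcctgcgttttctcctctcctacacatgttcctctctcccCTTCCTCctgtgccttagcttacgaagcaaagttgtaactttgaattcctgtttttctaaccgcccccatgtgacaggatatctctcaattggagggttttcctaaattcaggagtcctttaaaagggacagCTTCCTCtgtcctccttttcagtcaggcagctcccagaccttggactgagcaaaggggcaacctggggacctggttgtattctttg
Fcgr1, Ctss and Trem2 were each lowest in shNC 2 and highest in shNC 3, by 5.06-, 6.08- and 6.67-fold between these libraries. Mrc1, with the core at 2 places, spanned 1.67-fold over all 6 libraries and was highest in shYthdf2 3.

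The growth factor Csf1 and its receptor both had a higher mean level in shYthdf2 hearts, with a median log2 fold change of 0.34 and 0 of 2 past the test. Csf1 (ENSMUSG00000014599, chromosome 3, 107648364 to 107667785, minus strand) had 170.0, 165 and 105 CPM in shYthdf2 1, 2 and 3, against 86.4, 97.8 and 144 CPM in shNC 1, 2 and 3. The ligand was highest in shYthdf2 1 and 2, and the log2 fold change was 0.43 ± 0.28 (SE, edgeR adjusted p = 0.976, exact permutation p = 0.2). Csf1r (ENSMUSG00000024621) had 70.01, 73.3 and 62.4 CPM in shYthdf2 hearts, against 46.3, 37.1 and 89.8 CPM in shNC hearts. The receptor thus kept the order of the identity genes, with shNC 3 highest, and had a log2 fold change of 0.25 ± 0.33 (SE, edgeR adjusted p = 0.976). Its row overlaps Hmgxb3 on the other strand, and no source says whether reads were counted by strand.

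The resident markers did not share that order as a group. Stab1 did keep it, and Ms4a7 kept it in part, each highest in shNC 3 and lowest in shNC 2. For Ms4a7 shNC 1 lay above shYthdf2 1 and 2. Of all 8 resident genes 4 had a higher and 4 a lower level in shYthdf2 hearts, the median log2 fold change was -0.01, and 0 passed. Mrc1 (ENSMUSG00000026712, chromosome 2, 14234203 to 14336868, plus strand) had 37.4, 37.4 and 59.5 CPM in shYthdf2 1, 2 and 3, against 35.6, 40.8 and 36.3 CPM in shNC 1, 2 and 3. Every library but shYthdf2 3 lay close together, and the log2 fold change was 0.25 ± 0.23 (SE, edgeR adjusted p = 0.976). Vsig4, the complement receptor CRIg, had 0.900, 1.49 and 0.882 CPM in shYthdf2 hearts, against 1.17, 2.35 and 2.61 CPM in shNC hearts, with a log2 fold change of -0.91 ± 0.45 (SE, edgeR adjusted p = 0.976). Timd4 had 0.485, 0.969 and 0.697 CPM in shYthdf2 hearts, against 1.36, 1.81 and 0.211 CPM in shNC hearts, and so was lowest in the library where the identity genes were highest. Folr2, a folate receptor, was at 6.34, 6.49 and 6.63 CPM in shYthdf2 hearts, against 6.49, 10.1 and 6.05 CPM in shNC hearts, the smallest spread among shYthdf2 libraries in the set.

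A different pair of libraries stood out for Cd163 and Lyve1, which were picked after their values were seen. Cd163, the haemoglobin scavenger receptor, had 27.5, 25.6 and 11.4 CPM in shYthdf2 1, 2 and 3, against 26.6, 29.6 and 10.5 CPM in shNC 1, 2 and 3. Lyve1, the hyaluronan receptor, had 31.6, 32.7 and 13.1 CPM in shYthdf2 hearts, against 30.2, 24.1 and 13.1 CPM in shNC hearts. Both were low in shYthdf2 3 and in shNC 3, 1 library of each group, and the log2 fold changes were -0.05 ± 0.46 and 0.20 ± 0.42 (SE). Lymphatic endothelium also makes LYVE1 and STAB1. Of 6 lymphatic markers 4 had a higher level in shYthdf2 hearts, their sum ran from 120.2 to 129.9 CPM in shYthdf2 and from 71.2 to 122 CPM in shNC libraries, none was at 0, and their part in these values was not tested. Stab1 and Ms4a7, a membrane protein of macrophages, are also given in full after their values were seen. Stab1 had 182.5, 189.5 and 168.5 CPM in shYthdf2 hearts, against 168.0, 87.5 and 207.8 CPM in shNC hearts. Ms4a7 had 2.63, 1.98 and 5.10 CPM in shYthdf2 hearts, against 3.38, 0.915 and 5.22 CPM in shNC hearts. Their log2 fold changes were 0.22 ± 0.31 and 0.03 ± 0.64 (SE). The rows of Stab1 and Folr2 overlap genes on the other strand (Nt5dc2 and Gm10602), so their counts can hold reads of those genes.

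**Figure D3:**
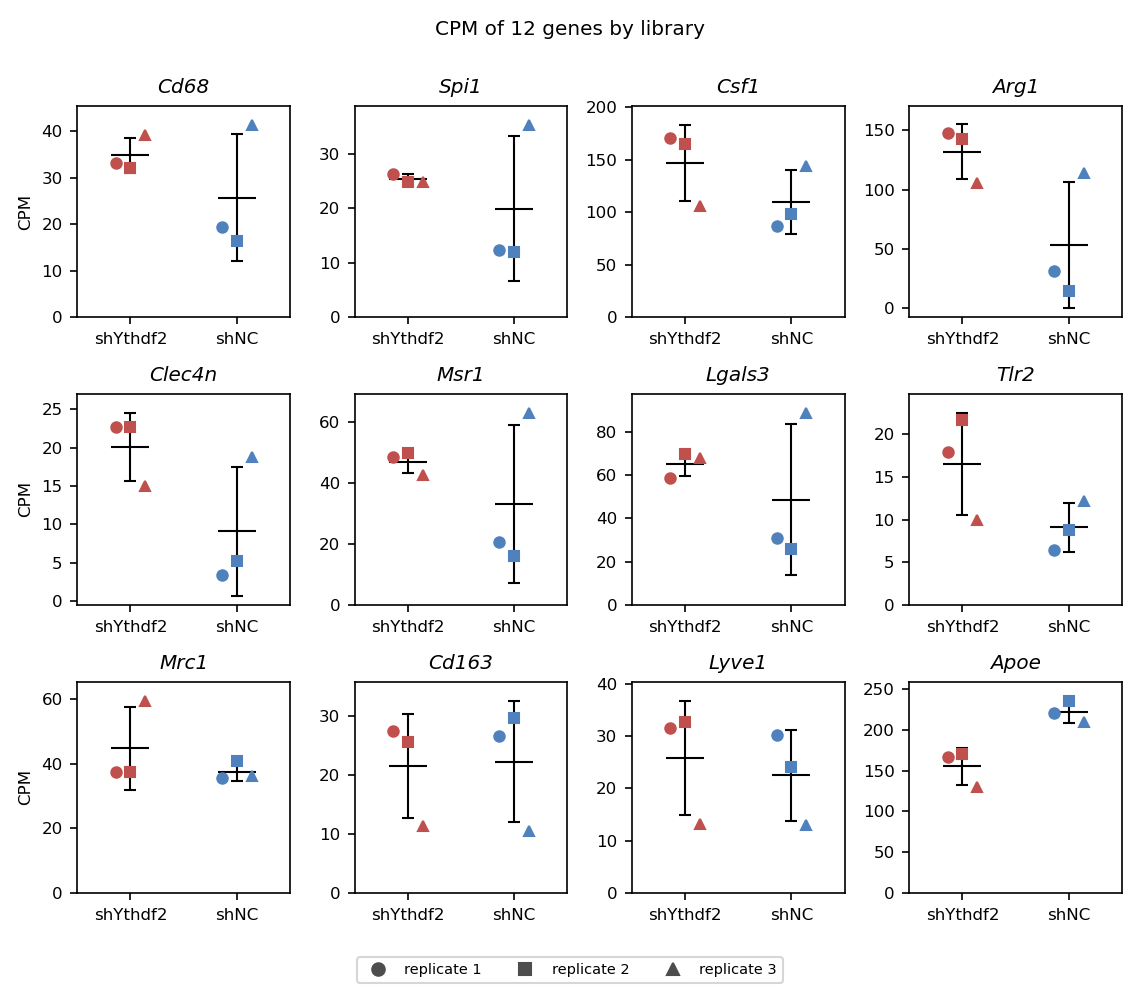
CPM of 12 genes in each library, with shYthdf2 left of shNC, and bars for the mean ± SD (n = 3 libraries each). In Cd68, Spi1, Arg1, Clec4n, Msr1 and Lgals3 shNC 3 (triangle) lies far above shNC 1 and 2, in Cd163 and Lyve1 the triangle is low in both groups, and in Apoe the groups do not overlap.

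Among monocyte genes and receptors for microbial and damage signals, the 4 receptor genes had positive log2 fold changes and both monocyte markers negative ones, with 0 of 6 past the test. Clec4n, which encodes the C-type lectin receptor dectin-2 (ENSMUSG00000023349, chromosome 6, 123206802 to 123223980, plus strand), had 22.7, 22.7 and 14.96 CPM in shYthdf2 1, 2 and 3, against 3.31, 5.18 and 18.8 CPM in shNC 1, 2 and 3. That is 2.21-fold higher, with a log2 fold change of 1.15 ± 0.62 (SE, edgeR adjusted p = 0.976). Tlr2, the receptor for lipoproteins (ENSMUSG00000027995, chromosome 3, 83743579 to 83749074, minus strand), had 17.9, 21.6 and 9.91 CPM in shYthdf2 hearts, against 6.43, 8.76 and 12.1 CPM in shNC hearts. Its log2 fold change of 0.86 ± 0.36 (SE) had an unadjusted p of 0.0476 and an edgeR adjusted p of 0.976, and shYthdf2 3 lay below shNC 3. Tlr4, the endotoxin receptor, had 11.4, 10.9 and 14.1 CPM in shYthdf2 hearts, against 1.69, 7.16 and 11.7 CPM in shNC hearts, so that shNC 1 was far below every other library. Cd14, the co-receptor of TLR4, was given in full after its values were seen, at 69.7, 76.0 and 25.7 CPM against 11.9, 17.7 and 61.7 CPM in shNC.

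Ly6c2, the antigen of inflammatory monocytes, had 14.3, 12.97 and 13.7 CPM in shYthdf2 hearts, against 16.8, 20.1 and 10.4 CPM in shNC hearts. The order of the controls was the reverse of that for the identity genes, and the log2 fold change was -0.21 ± 0.27 (SE, edgeR adjusted p = 0.976). Its near copy Ly6c1, a gene of blood endothelium, was at 197, 192 and 179 CPM in shYthdf2 hearts, against 302, 365 and 137 CPM in shNC hearts, and reads of both genes can be split, so Ly6c2 is uncertain. Plac8, another monocyte gene, had a log2 fold change of -0.15 ± 0.31 (SE). Neutrophils also express Cd14, Tlr2, Clec4n and Chil3. Of 11 neutrophil markers tested 9 had a higher level in shYthdf2 hearts, and the sum over 12 was 531, 528 and 131 CPM in shYthdf2 1, 2 and 3, against 139.96, 209 and 409 CPM in shNC 1, 2 and 3. Ngp and Ltf were at 0 in shYthdf2 3, and Camp was at 0 in shNC 2 and 3. Among shYthdf2 hearts the sum, Cd14 and Tlr2 were each lowest in shYthdf2 3, while over all 6 libraries Cd14 and Tlr2 were lowest in shNC 1, and the part of neutrophil markers in the receptor values was not tested.

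Of the 8 repair and lipid genes 5 had a higher and 3 a lower level in shYthdf2 hearts, with a median log2 fold change of 0.26, which was 1.104 without shNC 3, and 0 past the test. Arg1, arginase 1 of alternatively activated macrophages (ENSMUSG00000019987, chromosome 10, 24791119 to 24803382, minus strand), had 148, 143 and 105 CPM in shYthdf2 1, 2 and 3, against 31.4, 14.6 and 114 CPM in shNC 1, 2 and 3. The mean was 2.48-fold higher, 132 ± 23.2 CPM against 53.2 ± 53.0 CPM in shNC (SD, n = 3 each), the largest log2 fold change of the set at 1.31 ± 0.67 (SE, edgeR adjusted p = 0.976, 95% interval from -0.27 to 2.88). Lgals3, galectin-3 (ENSMUSG00000050335, chromosome 14, 47605208 to 47623617, plus strand), had 58.6, 69.6 and 67.8 CPM in shYthdf2 hearts, against 31.1, 25.9 and 88.8 CPM in shNC hearts. Trem2, a lipid-sensing receptor of phagocytes, had 13.6, 13.2 and 15.2 CPM in shYthdf2 hearts, against 7.45, 4.16 and 27.7 CPM in shNC hearts. Both kept the order of the identity genes, and Trem2 was even across shYthdf2 hearts at a log2 fold change of 0.09 ± 0.63 (SE, edgeR adjusted p = 0.992).

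Apoe was the member with the smallest p (ENSMUSG00000002985, chromosome 7, 19430034 to 19433113, minus strand). It had 167, 169.7 and 129 CPM in shYthdf2 1, 2 and 3, against 220.2, 236 and 209 CPM in shNC 1, 2 and 3. All 3 shYthdf2 libraries lay below all 3 shNC libraries, and shNC 3 did not stand apart from the other controls. The level was 0.701 times that of shNC, with a log2 fold change of -0.51 ± 0.19 (SE, unadjusted p = 0.0318, edgeR adjusted p = 0.976). The exact permutation test gave p = 0.1, the smallest that 3 against 3 libraries allow. Chil3, a chitinase-like protein of macrophages and neutrophils, was picked after its values were seen, at 90.3, 86.4 and 28.3 CPM against 25.3, 23.4 and 104 CPM in shNC. The rest, Gpnmb, Fabp5 and Retnla, had log2 fold changes of 0.51 ± 0.58, -0.06 ± 0.22 and -0.06 ± 0.78 (SE).

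The scavenger and protease genes were all higher on average, with 5 of 5 above 0, a median log2 fold change of 0.36, which was 0.15 without shNC 2, and 0 past the test. Msr1, scavenger receptor A (ENSMUSG00000025044, chromosome 8, 40034726 to 40095714, minus strand), had 48.6, 49.8 and 42.7 CPM in shYthdf2 1, 2 and 3, against 20.8, 15.98 and 63.0 CPM in shNC 1, 2 and 3. Ctsb, the lysosomal protease cathepsin B, had 471, 493 and 773 CPM in shYthdf2 hearts, against 392, 418 and 546 CPM in shNC hearts, with shYthdf2 3 highest of the 6. The Ctsb row overlaps Fdft1 on the other strand. Marco had 1.69, 0.827 and 0.171 CPM in shYthdf2 hearts, against 0.864, 0.443 and 0.751 CPM in shNC hearts, resting on as few as 13 counts in shYthdf2 3. Ctss, cathepsin S of antigen-presenting cells, and Mertk, the receptor for uptake of dying cells, had log2 fold changes of 0.16 ± 0.61 and 0.10 ± 0.24 (SE).

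One control library decided whether any of these genes passed. It was shNC 3, which over all genes was closer to every shYthdf2 library than to shNC 1 or 2. With shNC 3 left out, 5 of 37 genes (13.5%) rose in shYthdf2 hearts in edgeR, where 211 of 21245 genes (0.993%) passed, 137 of them (0.645%) higher. They were Msr1 (log2 fold change 1.36, adjusted p = 0.0414), Clec4n (2.25, adjusted p = 0.0438), Lgals3 (1.199, adjusted p = 0.0438), Arg1 (2.52, adjusted p = 0.0460) and Spi1 (1.06, adjusted p = 0.0466). Markers of other cells moved in the same fit: 5 of 6 red cell markers fell, with a list median of -2.25, and 1 of 6 lymphatic markers, Pdpn, rose, with a list median of -0.28. The medians were 2.49 for platelet markers (9 of 9 higher), 1.16 for neutrophil markers (9 of 11) and -0.83 for cardiomyocyte markers (1 of 9), with 0 past the test in each, and the part of any of these lists in the 5 calls was not tested. Among the 37, without passing, stood Fcer1g (adjusted p = 0.0537), Lyz2 (0.0600), Tyrobp (0.0601) and Cd68 (0.0605). The median of the set was then 0.72 against 0.02 over all genes. In 22 of 37 genes (59.5%) every shYthdf2 library lay above shNC 1 and 2, where 20.4% of all genes tested did, and in 3 every shYthdf2 library lay below them, where 19.8% did. All 8 identity genes were among the 22, and of the 8 resident markers Stab1 alone. Leaving out any other library gave 0 members past the test, where 0.00459% of all genes passed without shNC 1, 0.00457% without shNC 2 and 0 genes without any shYthdf2 library, and with shNC 1 or shNC 2 left out the median of the set was 0.11 or 0.09.

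**Figure D4:**
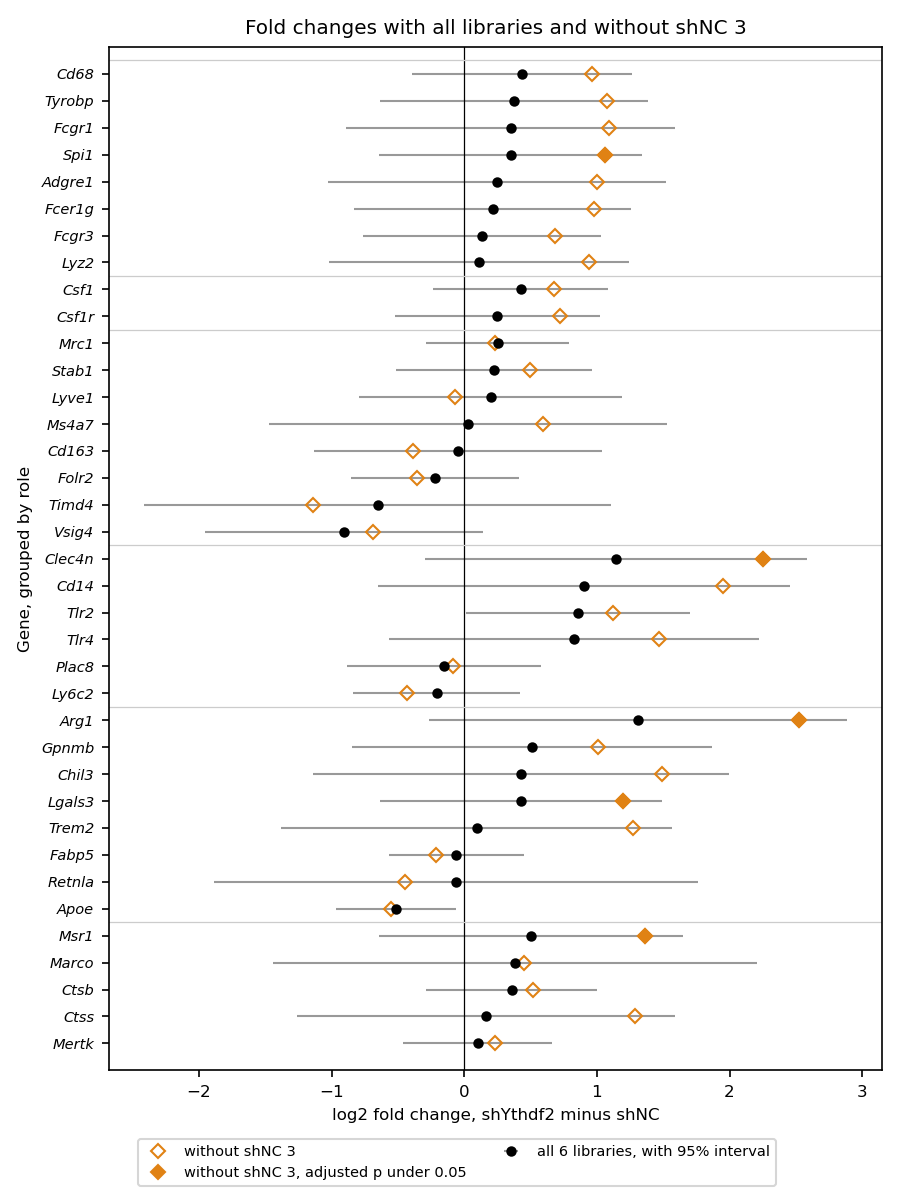
Log2 fold change, shYthdf2 minus shNC, of the 37 genes grouped by role. Black points with bars are the edgeR estimates from all 6 libraries with their 95% intervals, open diamonds the estimates without shNC 3, and filled diamonds those with an adjusted p under 0.05 there (Spi1, Clec4n, Arg1, Lgals3 and Msr1).

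Set against Cd68 within each library, the genes were compared with each other. Division by Cd68 narrowed the span over the 6 libraries in 22 of 36 genes, and the share among all genes was not worked out. Spi1 per Cd68 was 0.794, 0.774 and 0.635 in shYthdf2 1, 2 and 3, against 0.640, 0.729 and 0.854 in shNC 1, 2 and 3, a span of 1.34-fold where its CPM spanned 2.94-fold. Lgals3 spanned 1.38-fold per Cd68 and Tyrobp 1.60-fold, where their CPM spanned 3.43- and 3.13-fold. Among shYthdf2 libraries alone the CPM of Spi1, Lgals3 and Tyrobp spanned only 1.06-, 1.19- and 1.31-fold. Division by Cd68 did not narrow these 3 spans, and Tyrobp per Cd68 ran from 0.873 to 1.395 there. Arg1 per Cd68 was 4.46, 4.45 and 2.69 in shYthdf2 hearts, against 1.62, 0.888 and 2.75 in shNC hearts, a span of 5.02-fold (exact permutation p = 0.2).

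Division by Cd68 widened the span in 6 of 8 resident markers, while that of Stab1 was 2.02-fold per Cd68 against 2.37-fold in CPM, and that of Ms4a7 3.15-fold against 5.70-fold. Cd163 per Cd68 was 0.830, 0.798 and 0.291 in shYthdf2 1, 2 and 3, against 1.38, 1.80 and 0.254 in shNC 1, 2 and 3, a span of 7.09-fold. Folr2 per Cd68 was 0.191, 0.202 and 0.169 in shYthdf2 hearts, against 0.336, 0.616 and 0.146 in shNC hearts. Both ratios were higher in shNC 1 and 2 than in any shYthdf2 library and lowest in shNC 3. Vsig4 was the only one of 36 ratios whose groups did not overlap, at 0.0272, 0.0463 and 0.0225 in shYthdf2 hearts, against 0.0608, 0.142 and 0.0632 in shNC hearts. Its exact permutation p was 0.1, the smallest possible, before any adjustment over 36 ratios. The share of ratios without overlap among all genes was not worked out, so this count is not read as a result about the set.

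**Figure D5:**
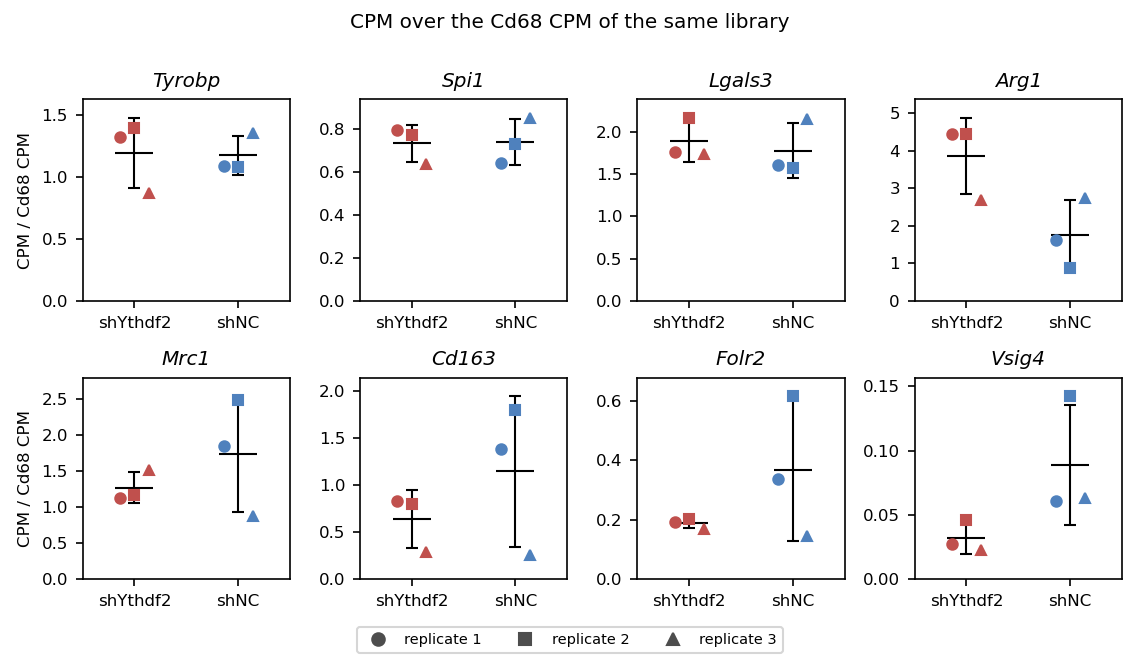
CPM of 8 genes divided by the Cd68 CPM of the same library, with shYthdf2 left of shNC, and bars for the mean ± SD (n = 3 libraries each). Tyrobp, Spi1 and Lgals3 have narrow ranges that overlap between groups, while Cd163 and Folr2 are high in shNC 1 and 2 and low in shNC 3. The divisor Cd68 is itself low in shNC 1 and 2 and high in shNC 3.

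Other monocyte and macrophage genes, 46 in all and all tested, were counted in the same way. The level was higher in shYthdf2 hearts in 33 (71.7%, against 48.6% of all genes tested) and lower in 13. The median log2 fold change was 0.22. In edgeR 0 passed, where 0.00976% of all genes did. DESeq2, which gave an adjusted p for 45 of them, also passed 0, where 0.27% of its genes passed. At an unadjusted edgeR p under 0.05 there was 1 of 46, where 3.65% of all genes tested were. Higher without overlap was also 1 of 46, where 4.95% of all genes were, so neither count is read as a result about the list. The gene was Irf8, a transcription factor of monocytes and dendritic cells. It had 22.3, 21.4 and 19.4 CPM in shYthdf2 1, 2 and 3, against 13.9, 9.13 and 14.8 CPM in shNC 1, 2 and 3, with no overlap and a log2 fold change of 0.74 ± 0.24 (SE, edgeR adjusted p = 0.976). Plin2, a lipid droplet coat protein found in many cells, had 195, 192 and 89.8 CPM in shYthdf2 hearts, against 95.2, 101 and 105 CPM in shNC hearts, so shYthdf2 3 was the lowest of the 6. With shNC 3 left out 2 of the 46 rose past the edgeR test, where 137 of 21245 genes (0.645%) did. They were Itgam (log2 fold change 1.58, adjusted p = 0.0460), the integrin CD11b, and Spp1 (3.75, adjusted p = 0.0337), osteopontin of repair macrophages and other cells.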

How the data were processed

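Total RNA of 6 mouse heart samples (3 shYthdf2 and 3 shNC, grouped by title) was prepared with a TruSeq kit, per the labels' protocols. The authors deposited 1 table with raw counts per gene, not scaled to depth, per the file headers. It also holds the authors' FPKM values, per its column headers, with genes without counts at 0.0001. The submitters' processing notes list Bowtie 0.12.2 and mm8 without saying what each served for. Neither the counting tool nor the genome build behind the coordinates is stated (not given in the sources used here), so coordinates carry no build.

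Counts were fitted with edgeR 4.0.16 in R 4.3.3 (filterByExpr, TMM, two-sided quasi-likelihood test, Benjamini-Hochberg adjustment over 20489 genes, threshold 0.05), and the fit was run on simulated data. With the dispersion unscaled, it recovered 0% of 50 genes changed 2-fold and 34% of 50 changed 4-fold, with 5 false calls. A gene that does not pass can therefore still differ by such a fold. Standard errors come from the F statistic. Single values were tested by an exact two-sided permutation test of 3 against 3 libraries. Alternatives were DESeq2 1.42.0, limma 3.58.1 on log2(FPKM + 0.5), RLE scaling, no filter, a replicate block, shYthdf2 1 and 2 summed, and each library left out. The members and lists were chosen with earlier results of these data known. In each role group the values of every library are given for 9 fixed genes and for the 3 with the smallest p, and for others as stated. Promoter windows are from RefSeq (GRCm38.p6), matched by symbol, with the first window of each gene used.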

Additional observations from a re-analysis of the deposited data

How the results depend on the processing

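The number of genes past the threshold, 2 of all tested, was 0 with the replicate block, 0 with shYthdf2 1 and 2 summed, 1 by limma on log2(FPKM + 0.5) and 54 by DESeq2, and ran from 0 to 211 with 1 library left out. For the 37 members it was 0 under each of these settings except without shNC 3, so the range was 0 to 5, and for the 46 other genes 0 to 2. With 1 library left out the median log2 fold change ran from 0.087 to 0.72 for the set, from -0.012 to 0.99 for the identity genes, from -0.21 to 0.096 for resident markers and from 0.061 to 1.104 for the repair genes. It ran from 0.19 to 0.70 for Csf1 and its receptor, from 0.45 to 1.29 for the recruited and pattern receptor genes and from 0.15 to 0.52 for the scavenger genes. The direction held in all 12 alternatives for 17 members, Arg1, Clec4n, Tlr2, Spi1, Msr1, Lgals3 and Apoe among them, and turned in at least 1 of the 6 fits without a library for 20. The cause of these turns was not tested.

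The ranges of the log2 fold change with 1 library left out, for those 20, were -0.13 to 1.00 for Adgre1, -0.19 to 0.94 for Lyz2, -0.046 to 1.09 for Fcgr1, -0.15 to 0.68 for Fcgr3, -0.061 to 0.98 for Fcer1g and -0.0035 to 0.37 for Mrc1. They were -0.38 to 0.26 for Cd163, -0.071 to 0.52 for Lyve1, -0.35 to 0.053 for Folr2, -0.056 to 0.50 for Stab1, -0.46 to 0.59 for Ms4a7, -0.43 to 0.010 for Ly6c2 and -0.46 to 0.014 for Plac8. They were -0.46 to 0.64 for Retnla, -0.32 to 1.27 for Trem2, -0.071 to 1.01 for Gpnmb, -0.21 to 0.053 for Fabp5, -0.032 to 0.29 for Mertk, -0.45 to 0.88 for Marco and -0.24 to 1.29 for Ctss. Cd163 turned to 0.011 with limma on log2(FPKM + 0.5), and Fabp5 to 0.0071 with shYthdf2 1 and 2 summed. Over all genes, same-numbered libraries did not deviate together (correlations of -0.01, -0.03 and -0.06). Such correlations cannot show a pairing that touches only some genes, which was not tested. The replicate block changed no call of a member.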

Other observations

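Markers of other cells in the same hearts differed as follows in median log2 fold change, shYthdf2 minus shNC, with 0 genes past the edgeR test in each list over all 6 libraries. The median was 2.36 for platelet markers (9 of 9 higher), 0.48 for neutrophil markers (9 of 11), 0.13 for fibroblast markers (4 of 7), 0.12 for lymphatic markers (4 of 6) and 0.11 for lymphocyte markers (3 of 6). It was -0.03 for blood endothelial markers (3 of 7 higher), -0.19 for dendritic cell markers (1 of 6), -0.53 for cardiomyocyte markers (1 of 9) and -1.78 for red cell markers (0 of 6).

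Spp1 differed widely between control libraries. It was at 182, 185 and 312 CPM in shYthdf2 1, 2 and 3, against 22.2, 11.5 and 456 CPM in shNC 1, 2 and 3. Ccr2, the chemokine receptor by which monocytes enter tissue, was at 28.7, 47.6 and 15.4 CPM in shYthdf2 hearts, against 24.8, 9.47 and 86.9 CPM in shNC hearts, and so was high in shNC 3 and lowest in shNC 2. C1qa, a complement subunit of tissue macrophages, was at 74.4, 70.9 and 70.7 CPM in shYthdf2 hearts, against 82.8, 73.4 and 108 CPM in shNC hearts, a narrow range beside these. Spp1, Ccr2 and C1qa were chosen after their values were seen.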
